A study of Bos taurus with 8 samples.

Results

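Bovine embryos edited in RPL12 were compared between the 4-cell and the 8-cell stage. RPL12 encodes a protein of the large ribosomal subunit. The comparison rests on 4 of the 8 RNA sequencing libraries, 2 from edited 4-cell embryos and 2 from edited 8-cell embryos, and on the 11672 of 16606 genes whose mean over these 4 libraries was at least 1 CPM (reads per 1000000 reads in a library). The oocytes came from abattoir ovaries and were matured and fertilised in vitro with Holstein semen. Edited embryos were injected in the cytoplasm as zygotes with PEmax, a prime editor that joins a Cas9 nickase to a reverse transcriptase, and a guide RNA for the RPL12 change that the labels call A148G. The other 4 libraries are 2 of control 4-cell and 2 of control 8-cell embryos, and the labels do not say whether controls were injected, what share of RPL12 copies carried the edit, or whether cumulus cells were stripped. Each library was made from 5 pooled embryos, so a value is the mean of a pool. The titles speak of base editing where the protocol speaks of prime editing, and the source name of the 4-cell libraries is oocytes where their titles say 4-cell embryo; the titles were followed. Replicates are separate samples in the labels, which do not say that they came from separate fertilisations, so the p-values measure the spread between these pools, which may be partly technical.

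In mammals the first cleavages run on messenger RNA that the oocyte stored. During the maternal-to-zygotic transition this stock is translated, deadenylated and degraded while the embryo's own genome is switched on, and in cattle the main wave of that activation falls around the 8-cell stage. A transcript can therefore become more abundant between the stages through new synthesis, or through a longer poly(A) tail that makes an existing transcript easier to capture with oligo(dT), and it can become less abundant through degradation. Total RNA per embryo was not measured, CPM are shares of a library, and fewer cells of one type cannot be told apart from less RNA per cell. CPM are not divided by transcript length, so values are compared between libraries and not between genes.

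The 4 edited libraries held 33527531 to 34315286 reads in genes, and within-stage correlations of log2(CPM + 1) were 0.971 for 4-cell and 0.977 for 8-cell libraries. The first principal component of all 8 libraries took 67.8% of the variance and placed both edited stages at one end, at -46.3 and -34.7 (4-cell) and -59.4 and -59.6 (8-cell), with the control libraries between 7.89 and 90.2. The labelled cell type was checked against 14 egg and early-embryo markers, which all passed the filter, with summed levels of 48364 and 57032 CPM at the 4-cell and 50620 and 53429 CPM at the 8-cell stage. Markers of follicle cells were present too. The 29 cumulus and granulosa markers in the table, of which 18 passed the filter, summed to 685 and 689 CPM in the 4-cell and 597 and 560 CPM in the 8-cell edited libraries. Of the 18, 2 (ALDH1A1 and SERPINE2) were called lower, 10 had a negative and 8 a positive log2 fold change, and the median was -0.15. Most of the fall in the sum was that of ALDH1A1, from 142 and 92.1 CPM to 20.5 and 15.4 CPM. Among all tested genes 3.95% were called lower and 1.55% higher, which applies to each marker set here. The 14 theca and stroma markers in the table, of which 8 passed the filter, summed to 1458 and 2100 CPM and then 245 and 868 CPM, most of it LUM, which encodes the matrix proteoglycan lumican; without LUM the sums were 176 and 203 CPM and then 124 and 119 CPM. Of these 8, 7 had a negative log2 fold change, 2 (COL1A2 and LUM) were called lower, and the median was -0.93, or -0.45 without LUM. OVGP1, the oviduct glycoprotein, was at 0 in all 4 edited libraries, and none of the 3 leukocyte, 3 endothelial and blood, or 2 sperm markers that passed the filter was called.

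Between the stages 642 genes, 5.5% of those tested, were called in edited embryos at an adjusted p under 0.05 (limma on log2(CPM + 1), Benjamini-Hochberg adjustment over the 11672 genes). Of these, 181 genes (1.55%) were higher and 461 (3.95%) were lower at the 8-cell stage, so that 28.2% of the calls were rises. When libraries were centred on their median gene the calls were 248 higher and 362 lower, which makes 40.7% rises. At least 2-fold changes on the log2(CPM + 1) scale made up 132 of the rises and 376 of the falls. The 8-cell libraries lay on one side of both 4-cell libraries for each of the 642 called genes and for 6216 genes (53.3%) overall. The number of calls rested on single libraries: leaving out edited 4-cell replicate 1 gave 380 calls, leaving out edited 4-cell replicate 2 gave 7, and leaving out edited 8-cell replicate 1 or 2 gave 100 or 148. Leaving out control 4-cell replicate 1 or 2, which enter only through the shared spread, gave 999 or 978. The 7 genes called without edited 4-cell replicate 2 were also called without each of the other 3 edited libraries: SUPT4H1 and the unnamed loci LOC511494, LOC530538 and LOC538435 among the rises, and MMD, THBS1 and ALDH1A1 among the falls. Without edited 4-cell replicate 2 no other gene passed the threshold.

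**Figure D1:**
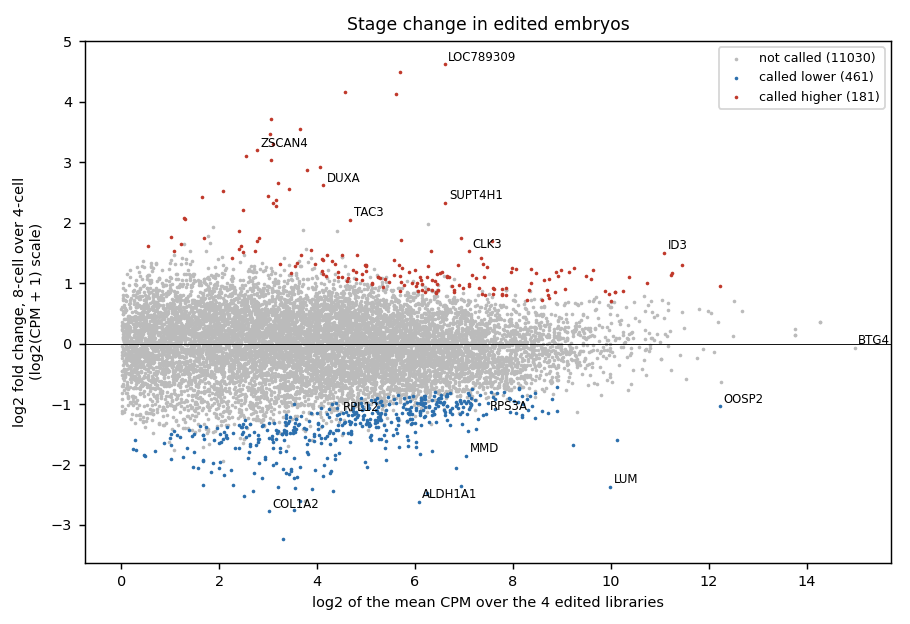
Stage change of each tested gene in edited embryos. The x axis is the log2 of the mean CPM over the 4 edited libraries, the y axis the log2 fold change of 8-cell over 4-cell on the log2(CPM + 1) scale, and colours mark the 181 genes called higher and the 461 called lower; falls outnumber rises, and the rises of more than 3 log2 units include LOC789309 and ZSCAN4.

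**Figure D2:**
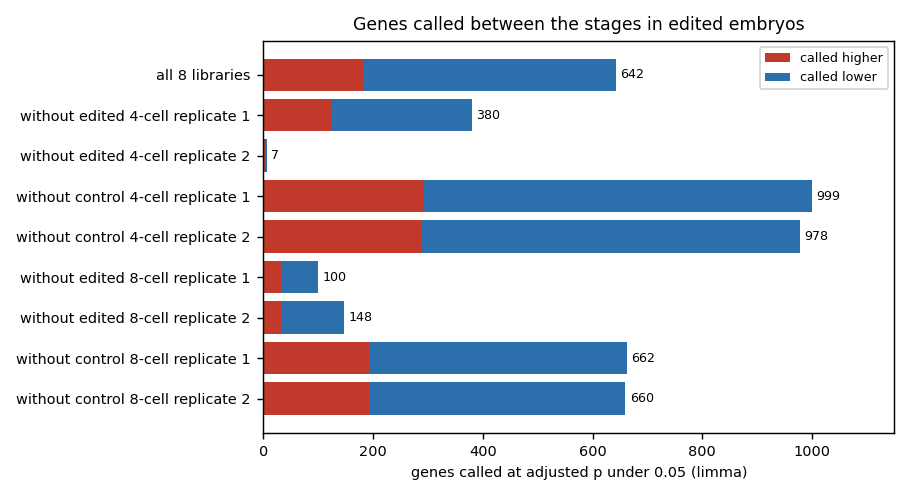
Number of genes called between the stages in edited embryos (x axis) with all 8 libraries and without each library in turn (y axis). Bars are split into genes called higher and lower; the count falls from 642 to 7 without edited 4-cell replicate 2.

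The strongest rises belonged to loci that carry only a LOC number. These loci were singled out after their values were seen. LOC789309 read 10.9 and 3.42 CPM in the 4-cell and 128 and 246 CPM in the 8-cell edited libraries, a log2 fold change of 4.62 (SE 0.51, adjusted p = 0.000549, limma). For LOC100141128 the values were 3.47 and 2.78 CPM and then 58.5 and 142 CPM, and for LOC511494 7.0 and 2.52 CPM and then 79.4 and 105 CPM, with log2 fold changes of 4.49 and 4.12. Without edited 4-cell replicate 2 the adjusted p was 0.0616 for LOC789309, 0.0894 for LOC100141128 and 0.0284 for LOC511494. In each of the 3 the lower 8-cell library was more than 10 times the higher 4-cell library. LOC genes made up 457 of the 11672 tested (3.92%), 31 of the 181 rises (17.1%) and 17 of the 461 falls (3.69%). Among the 27 rises of at least 4-fold, 22 were LOC genes. In controls 24 of the 31 were called higher, against 4 of the 150 rising genes with a symbol and 2.7% of all tested genes. LOC789309 went from 2.2 and 9.29 CPM to 106 and 86.1 CPM in controls.

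A run of neighbouring genes stood out among these loci. In the RefSeq order of genes on the assembly ARS-UCD2.0, 11 consecutive genes from LOC520023 to LOC100299783 include 9 that are in the table, of which 8 passed the filter. Those 8 were called higher in edited and in control embryos alike, against 1.55% and 2.7% of all tested genes. The run was picked after these values were seen, so its count of calls is no test. The 9 genes in the table summed to 17.3 and 4.47 CPM in the 4-cell edited libraries and 163 and 156 CPM in the 8-cell edited libraries. In controls the sums were 1.97 and 11.6 CPM and then 89.5 and 113 CPM. Within the run LOC530538 had 0.318 and 0.322 CPM and then 15.1 and 17.6 CPM, LOC789138 had 1.68 and 0.643 CPM and then 28.1 and 20 CPM, and LOC132342413 had 5.44 and 0 CPM and then 44.4 and 44.3 CPM. The 8-cell values lay well above the 4-cell values for each of these 3 loci. The table gives no descriptions for the loci, and genes in such runs are often near-identical copies among which reads can be split, so the run is better read as a whole than gene by gene. Without edited 4-cell replicate 2 the adjusted p of the 8 genes was 0.0434 to 0.219, and without the other edited libraries it was at most 0.117.

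Among the genes listed for embryonic genome activation, 4 of 22 tested members were called higher in edited embryos (1.55% of all tested genes were) and none lower. Their median log2 fold change was 0.41 against -0.03 for all tested genes. Controls had 3 called higher and 0 lower (2.7% and 5.86% of all tested genes) and a median of -0.08, against 0.04 for all tested genes. ZSCAN4, a zinc finger gene known for a burst of expression at genome activation, rose from 0.289 and 0.468 CPM to 6.72 and 19.8 CPM, a log2 fold change of 3.20 (SE 0.54, adjusted p = 0.00589, limma). DUXA, a double homeobox gene of the same period, rose from 2.89 and 4.53 CPM to 16.3 and 46.1 CPM (log2 fold change 2.62, SE 0.46). Its RefSeq neighbour ZNF805, a zinc finger gene, rose from 373 and 349 CPM to 818 and 906 CPM. In both ZSCAN4 and DUXA the second 8-cell library was more than 2 times as high as the first. Controls rose as well, by 1.97 for ZSCAN4 and 2.07 for DUXA on the log2 scale, and the change did not pass the test of a difference between edited and control embryos (adjusted p = 0.345 and 0.655, limma). EIF4A3, a helicase of the exon junction complex, rose from 158 and 159 CPM to 262 and 298 CPM, and GATA3, a trophectoderm transcription factor, from 14.7 and 13 CPM to 35.7 and 27 CPM. In controls EIF4A3 had 385 and 384 CPM and then 306 and 305 CPM (difference 1.14, adjusted p = 0.038, limma). GATA3 had 21 and 26 CPM and then 21.1 and 25.5 CPM in controls, and its difference was not called (adjusted p = 0.122, limma). The 4 calls became 1, 0, 2 and 1 without edited 4-cell replicate 1 and 2 and edited 8-cell replicate 1 and 2, and the list median stayed between 0.24 and 0.61.

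Other transcription factors of the early lineages did not pass the threshold. POU5F1, which encodes the pluripotency factor OCT4, had 38 and 20.8 CPM and then 45.1 and 68.6 CPM (log2 fold change 0.96, adjusted p = 0.0896, limma). KLF17, a Krüppel-like factor, had 0.405 and 0.292 CPM and then 2.0 and 1.8 CPM, and KLF4 had 14.7 and 13.9 CPM and then 8.85 and 6.14 CPM. The groups did not overlap for these 3 genes, which held for 53.3% of all tested genes. The 8-cell values were higher for POU5F1 and KLF17 and lower for KLF4. KLF5 had 2.52 and 1.96 CPM and then 2.15 and 0.928 CPM, which overlap. NANOG and TFAP2C stayed below the filter, NANOG at 0.578 and 0 CPM and then 0.359 and 0.0300 CPM, and SOX2 and KDM4E were not analysed here.

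**Figure D3:**
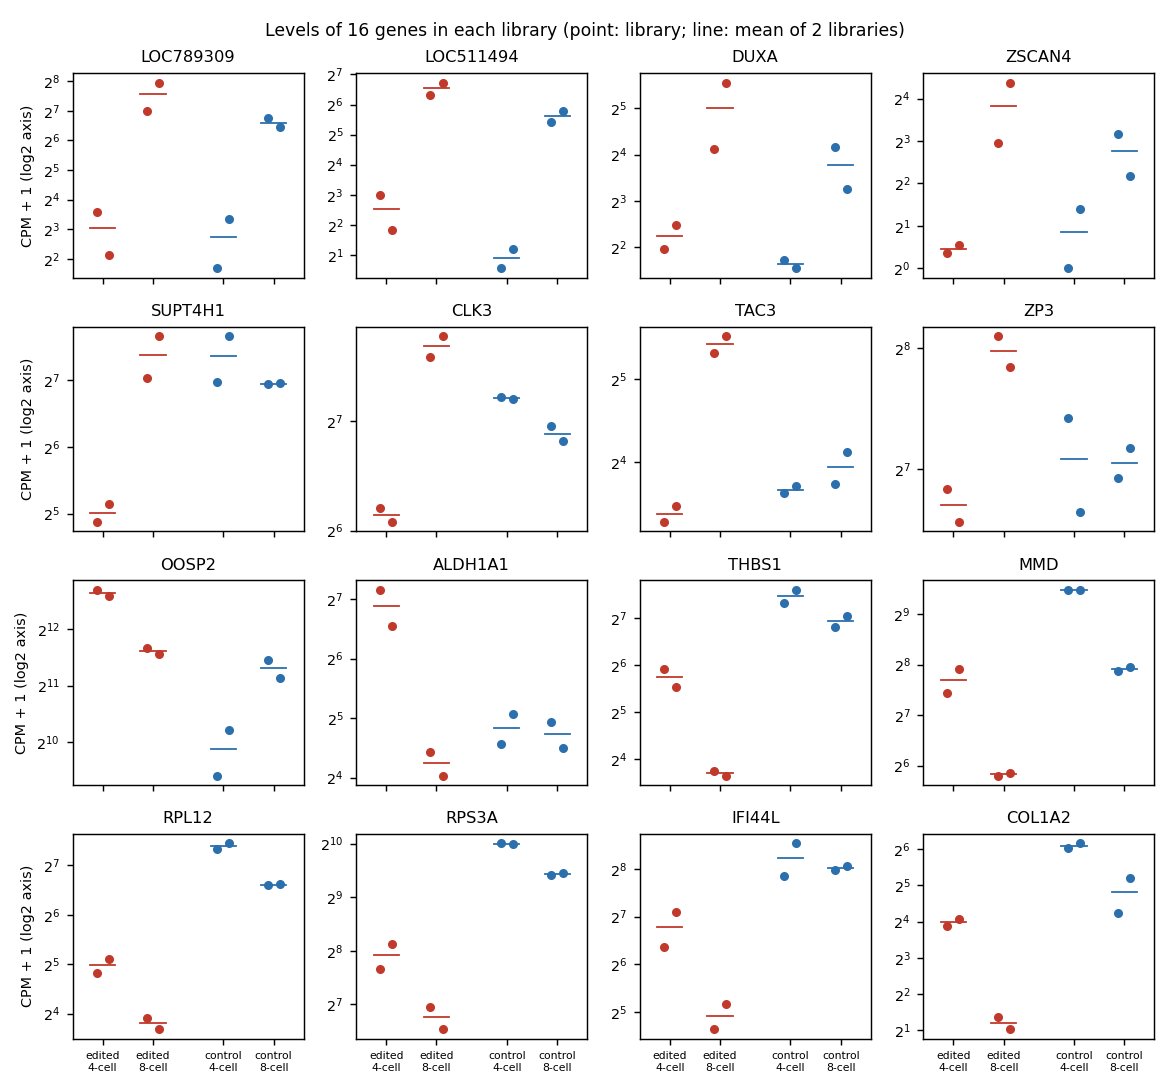
CPM + 1 on a log2 axis (y) of 16 genes in each of the 8 libraries (x: edited and control embryos at each stage). Points are libraries and lines the mean of 2 libraries; LOC789309, LOC511494, DUXA and ZSCAN4 rise with stage in edited and control embryos, whereas SUPT4H1 goes from 28.3 and 34.2 CPM to 129 and 200 CPM in edited embryos and stays between 121 and 201 CPM in controls.

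The named gene with the smallest p-value among the rises was SUPT4H1, which encodes the SPT4 subunit of the elongation factor DSIF. Its level was 28.3 and 34.2 CPM in the 4-cell and 129 and 200 CPM in the 8-cell edited libraries, a log2 fold change of 2.33 (SE 0.27, adjusted p = 0.000549, limma). The adjusted p was at most 0.0434 when any edited library was left out. In controls SUPT4H1 stood at 124 and 201 CPM and then 121 and 122 CPM, so the edited 4-cell libraries were the low ones among the 8. Within the RNA polymerase II machinery 5 of 101 tested genes were called higher and 3 lower (1.55% and 3.95% of all tested genes), with a median log2 fold change of -0.10. The polymerase subunit POLR2C rose from 171 and 145 CPM to 336 and 413 CPM and the subunit POLR2J from 377 and 312 CPM to 794 and 773 CPM. CDK9, the kinase that releases paused polymerase, rose from 22.8 and 22.9 CPM to 50.3 and 43.7 CPM, and the Mediator subunit MED18 from 56.3 and 50.6 CPM to 106 and 134 CPM. Of the falls, GTF2A1, a general transcription factor, went from 94.6 and 79.4 CPM to 47.1 and 40.4 CPM, and GTF2A2 and TAF2, of the same class, were the other 2. Without edited 4-cell replicate 1 or 2 the calls were 4 higher and 2 lower or 1 higher and 0 lower, and without edited 8-cell replicate 1 or 2 they were 2 higher or 1 higher, with 0 lower.

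In the splicing list 3 of 93 tested genes were called higher and 5 lower (1.55% and 3.95% of all tested genes; median -0.11). CLK3, a kinase of SR splicing factors, rose from 72.9 and 66.6 CPM to 190 and 217 CPM, a log2 fold change of 1.53 (SE 0.21, adjusted p = 0.00183, limma), while control levels were 147 and 145 CPM and then 123 and 111 CPM. The 2 edited stages lay on either side of the control libraries. Falls included LSM5, a ring protein that binds U6 RNA, from 25.4 and 40.7 CPM to 9.47 and 6.38 CPM, and the RNA-binding proteins HNRNPAB, from 12.3 and 18.5 CPM to 3.38 and 5.51 CPM, and HNRNPH1, from 58.1 and 86.3 CPM to 21.7 and 34.6 CPM. With edited 4-cell replicate 2 left out, the adjusted p of these 4 genes was 0.0861 to 0.232, and the calls of the list were 0 in that fit, 1 higher and 4 lower without edited 4-cell replicate 1, and 1 higher and 1 or 2 lower without an edited 8-cell library.

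Further rises with small p-values were spread over many functions. TAC3, the precursor of neurokinin B, rose from 8.65 and 10.1 CPM to 38.7 and 44.9 CPM (log2 fold change 2.05, SE 0.31, adjusted p = 0.00327, limma), with 12.3 and 16.3 CPM in the 8-cell controls. RASL11A, a Ras-like GTPase, rose from 89.4 and 85.3 CPM to 340 and 243 CPM, and SELENBP1, a selenium-binding protein, from 98.2 and 77.9 CPM to 210 and 265 CPM. Both 8-cell libraries were more than 2 times as high as both 4-cell libraries for each of these 3 genes. ID3, an inhibitor of helix-loop-helix transcription factors, rose from 1246 and 1020 CPM to 3495 and 2906 CPM. VPS72, a histone-exchange subunit, rose from 452 and 455 CPM to 1013 and 954 CPM, the zinc transporter TMEM163 from 293 and 277 CPM to 564 and 740 CPM, and COPRS, a partner of the arginine methyltransferase PRMT5, from 58.7 and 51.9 CPM to 165 and 212 CPM. CHN2, a regulator of the GTPase Rac, had one of the largest rises but also a wide spread, from 34.5 and 15.9 CPM to 84.9 and 74.8 CPM (SE 0.47). In the fit without edited 4-cell replicate 2, the adjusted p of these 8 genes was 0.0755 to 0.423, and CHN2 was not called without any one of the 4 edited libraries (0.0635 to 0.423).

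Of 40 oocyte-specific transcripts tested, 6 were called higher and 1 lower, against 1.55% and 3.95% of all tested genes, and the median log2 fold change was 0.28. Zona pellucida genes, which encode the egg coat, were among the rises: ZP3 went from 113 and 93.4 CPM to 273 and 229 CPM (log2 fold change 1.28, SE 0.26, adjusted p = 0.0124, limma) and ZP4 from 1022 and 1261 CPM to 2117 and 2425 CPM. KPNA7, an importin of the egg and early embryo, rose from 928 and 755 CPM to 1652 and 1965 CPM, the oocyte linker histone H1-8 from 622 and 356 CPM to 979 and 1216 CPM, and PADI6, a protein of the egg's cytoplasmic lattices, from 39.9 and 28.6 CPM to 77.2 and 62.5 CPM. MOS, the kinase that holds the egg in metaphase of meiosis, was the other rise, from 299.7 and 252 CPM to 608 and 553 CPM. The fall was OOSP2, an oocyte-secreted protein, from 6669 and 6196 CPM to 3263 and 3012 CPM. The calls depended on the pools: without edited 4-cell replicate 1 there were 4 rises and 0 falls, and without any one of the other 3 edited libraries there were 0 of each. The median stayed between 0.10 and 0.45. In controls 6 genes of this list were called higher and 1 lower (2.7% and 5.86% of all tested genes), and the median was 0.48. The control log2 fold change was 0.01 for ZP3, 0.03 for KPNA7, 0.09 for H1-8 and 0.13 for MOS. It was 0.45 for ZP4, 0.49 for PADI6 and 1.49 for OOSP2.

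Several of the most abundant egg transcripts gave no call between the stages. BTG4, the adaptor that brings the CCR4-NOT deadenylase to maternal messages, had 28841 and 37563 CPM and then 30586 and 32009 CPM (log2 fold change -0.07, SE 0.27, adjusted p = 0.908, limma). DPPA3, a maternal protector of DNA methylation, had 4873 and 6092 CPM and then 6061 and 5901 CPM. The growth factors GDF9 and BMP15, secreted by the oocyte, had 750 and 703 CPM and 3638 and 2970 CPM at the 4-cell and 911 and 1035 CPM and 4513 and 5108 CPM at the 8-cell stage. Neither was called, although their groups did not overlap, which held for 53.3% of all tested genes. The other genes of highest CPM were TMSB4X, with 18709 and 15825 CPM and then 22353 and 21706 CPM, PTTG1, with 13267 and 12991 CPM and then 13993 and 15093 CPM, and PAIP1, with 10131 and 15669 CPM and then 14860 and 15006 CPM. TMSB4X encodes thymosin beta-4, PTTG1 securin and PAIP1 a partner of the poly(A)-binding protein. The rows of TMSB4X and TMSB4 held identical reads in all 8 libraries, as did those of PTTG1 and LOC508043, so these reads cannot be assigned to either name. Over the deposited values, 213 tested rows in 95 sets shared their reads in this way, 10 of them called, in 5 sets.

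The machinery that stores and removes maternal messages had 1 of 41 tested genes called in the decay list and 3 of 30 in the storage list, against 5.5% of all tested genes. The decay gene was BTG1, a deadenylase adaptor that fell from 26.4 and 36.8 CPM to 9.08 and 10.5 CPM. In the storage list EIF4E1B, the oocyte form of the cap-binding protein, rose from 332 and 280 CPM to 521 and 539 CPM and ZAR1L, a relative of the maternal RNA-binding protein ZAR1, from 800 and 756 CPM to 1218 and 1327 CPM, while YBX3, a Y-box protein, fell from 11.5 and 10.6 CPM to 2.87 and 2.94 CPM. The adjusted p of the 2 rises was close to the threshold (0.0467 for each, limma) and was 0.0749 to 0.309 when an edited library was left out; that of BTG1 was 0.156 and that of YBX3 0.142 without edited 4-cell replicate 2. Of 25 tested genes that write, erase or read the RNA mark m6A, METTL5, which methylates ribosomal RNA, was called lower, from 75.6 and 116 CPM to 50.7 and 43.3 CPM (adjusted p = 0.0368, limma, and 0.035 to 0.312 with an edited library left out). METTL3, the main messenger RNA m6A writer, had 12.2 and 9.53 CPM and then 16.9 and 19.2 CPM and was not called.

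The list with the most falls was that of the cytosolic ribosomal proteins. Of 77 tested, 26 (33.8%) were called lower and none higher, 68 had a negative log2 fold change, and the median was -0.60, against 3.95% called lower and a median of -0.03 over all tested genes. Of the large-subunit proteins 20 of 46 were called, with a median of -0.74, and of the small-subunit proteins 6 of 31, with a median of -0.34; the difference between the subunits was not tested. RPL12, the edited gene, fell from 27.5 and 33.6 CPM to 14.1 and 11.9 CPM, a log2 fold change of -1.17 (SE 0.24, adjusted p = 0.0141 and 0.194 without edited 4-cell replicate 2, limma). Without RPL12 itself 25 of 76 were called and the median was -0.59. In controls RPL12 stood at 159 and 174 CPM and then 96.3 and 97.6 CPM, so both edited stages were below both control stages, and reads per gene do not tell an edited from an unedited copy. RPS26 fell from 28.5 and 30.6 CPM to 11.1 and 6.8 CPM, RPL37 from 60.9 and 67.3 CPM to 25 and 16.3 CPM, RPS15A from 60.1 and 69.6 CPM to 27.2 and 24.4 CPM and RPS3A from 202 and 280 CPM to 123 and 91.8 CPM. In each of the 5 genes the edited 4-cell values lay above the edited 8-cell values and below the control values.

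The control embryos had a ribosomal protein median of -0.65, with 6 of the 77 genes called lower (5.86% of all tested genes were) and 0 higher. For a difference between the stage changes of edited and control embryos 0 of the 77 was called, against 4.12% of all tested genes. The count of calls rested on the libraries: it was 9 without edited 4-cell replicate 1, 0 without edited 4-cell replicate 2, 5 without edited 8-cell replicate 1 and 0 without edited 8-cell replicate 2, whereas the median was -0.63, -0.60, -0.75 and -0.44 in these fits. Ribosomal protein genes have many processed copies in mammalian genomes, and how reads shared with such copies were counted is not given in the sources used here. RPL22L1, a paralogue of RPL22 outside the list, fell from 27.8 and 36.9 CPM to 6.72 and 6.53 CPM (log2 fold change -2.11, SE 0.27, adjusted p = 0.00095 and 0.0755 without edited 4-cell replicate 2, limma). Of 127 ribosome biogenesis genes tested, 4 were called higher and 7 lower, with a median of -0.07, against 1.55% higher and 3.95% lower among all tested genes. The stage change was called different from that of controls for 12 of the 127, against 4.12% of all tested genes. TAF1D, a factor of RNA polymerase I, fell from 7.78 and 15.2 CPM to 2.3 and 0.479 CPM, POLR3F, an RNA polymerase III subunit, from 3.93 and 5.12 CPM to 0.867 and 0.928 CPM, and UTP23, of the small-subunit processome, from 602 and 464 CPM to 255 and 233 CPM, while NOB1, which trims the small-subunit RNA, rose from 92.9 and 91.8 CPM to 182 and 179 CPM. These 4 had an adjusted p of 0.0989 to 0.223 without edited 4-cell replicate 2, a fit in which none of the biogenesis genes was called. Among 51 translation factors EIF3L, a subunit of the initiation factor eIF3, rose from 305 and 303 CPM to 605 and 821 CPM and EIF3J, another eIF3 component, fell from 86.2 and 75.6 CPM to 27.3 and 39.4 CPM (adjusted p = 0.143 and 0.142 in that fit).

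**Figure D4:**
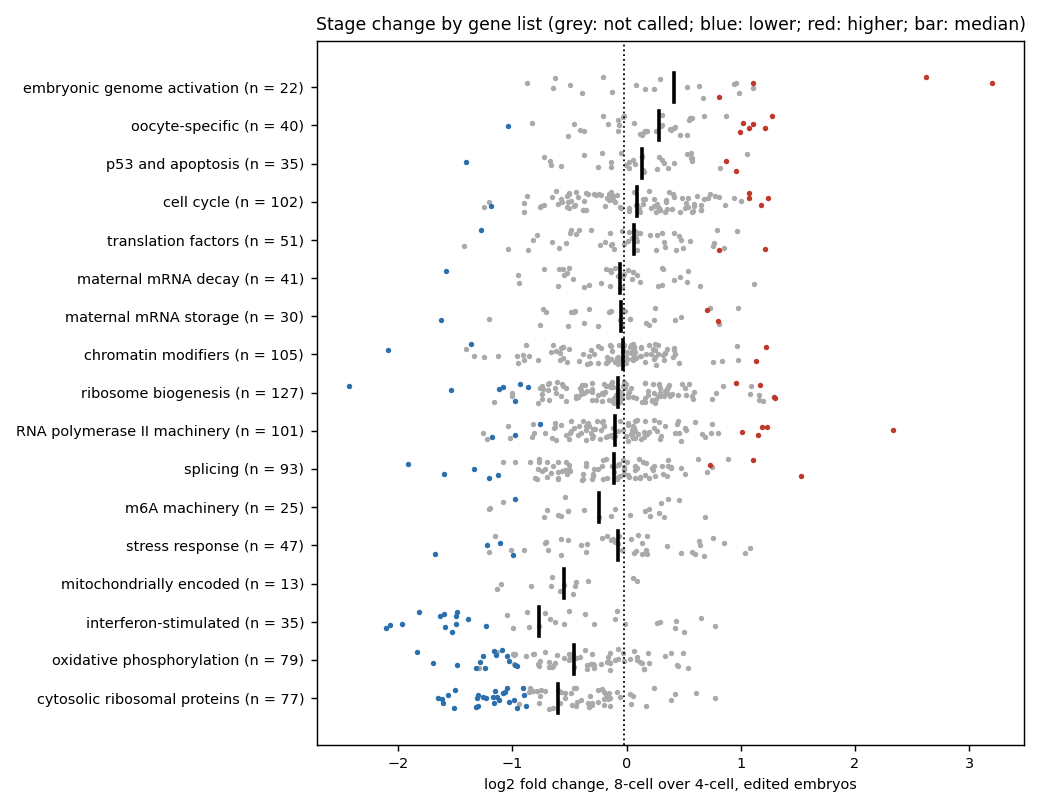
Log2 fold change of 8-cell over 4-cell in edited embryos (x) for the tested genes of each list (y, with their number). Points are genes, coloured where called, black bars are list medians and the dotted line is the median of all tested genes; ribosomal proteins (median -0.60), interferon-stimulated genes (-0.77) and oxidative phosphorylation (-0.46) lie to its left and genome activation genes (0.41) to its right.

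Of 79 nuclear genes of oxidative phosphorylation tested, 14 (17.7%) were called lower and none higher, against 3.95% lower among all tested genes; 16 had a positive log2 fold change. The median was -0.46, with -0.80 in controls. Complexes II and III gave 1 call of 13 tested genes (median -0.55), complex IV 2 of 11 (median -0.50) and ATP synthase 3 of 17 (median -0.50). Complex I, counted here with NDUFA4, gave 8 calls of 38 tested genes (21.1%), with a median of -0.29. Its subunit NDUFC2 fell from 28.8 and 36.9 CPM to 10.3 and 6.86 CPM (log2 fold change -1.83, SE 0.36, adjusted p = 0.0106, limma), NDUFB3 from 29.8 and 43 CPM to 13.4 and 14.8 CPM, NDUFA12 from 94.2 and 83.4 CPM to 26 and 27.2 CPM and NDUFC1 from 132 and 140 CPM to 67.8 and 63.8 CPM. COX7C, of complex IV, was also called, but its row is identical to that of LOC101902937. The 14 calls became 5, 0, 1 and 0 without edited 4-cell replicate 1 and 2 and edited 8-cell replicate 1 and 2, with medians of -0.53, -0.41, -0.53 and -0.37, and 24 without either 4-cell control library. The 13 genes encoded in mitochondrial DNA gave no call. Their summed level was 16789 and 11586 CPM at the 4-cell and 10082 and 10061 CPM at the 8-cell stage, and their median was -0.55 in edited embryos and 0.57 in controls. The 4-cell pools differed from each other in this sum, and the 8-cell pools were nearly equal.

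Of 35 interferon-stimulated genes tested, 13 (37.1%) were called lower and none higher, against 3.95% lower among all tested genes; 7 had a positive log2 fold change. The list had a median of -0.77 in edited embryos and -0.55 in controls. Of the antiviral effectors 12 of 23 were called and the median was -1.23, while of the 12 sensors and signalling genes 1 was called. IFI44L fell from 81.8 and 135 CPM to 24 and 35 CPM (log2 fold change -1.82, SE 0.29, adjusted p = 0.0047, limma) and its RefSeq neighbour IFI44 from 36.3 and 64.6 CPM to 8.13 and 16.6 CPM. MX1, a dynamin-like GTPase that blocks viruses, fell from 46.1 and 58.1 CPM to 14.5 and 18.6 CPM, and USP18, which removes ISG15 from proteins and damps interferon signalling, from 12.9 and 24.5 CPM to 2.27 and 4.82 CPM. In all 4 genes both 8-cell libraries were below both 4-cell libraries, and the edited 4-cell libraries were below the control 4-cell libraries. EIF2AK2, the RNA-activated kinase PKR, counted here among the stress genes, fell from 8.94 and 12.6 CPM to 2.03 and 3.35 CPM (adjusted p = 0.0115 and 0.194 without edited 4-cell replicate 2, limma). Without edited 4-cell replicate 1 or 2 the list gave 10 or 0 calls and without edited 8-cell replicate 1 or 2 it gave 5 or 7, with medians between -0.84 and -0.70. The summed follicle cell markers were lower at the 8-cell stage too, as given above, mostly through ALDH1A1 and LUM. Of the 18 cumulus and granulosa markers tested, 8 had a positive log2 fold change. The part of follicle cells in the falls of interferon-stimulated genes was not tested.

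Other genes with small p-values or large falls are given singly, since no list of matrix or cytoskeleton genes was tested. ALDH1A1, a retinaldehyde dehydrogenase that also serves as a granulosa marker, fell from 142 and 92.1 CPM to 20.5 and 15.4 CPM, a log2 fold change of -2.62 (SE 0.31, adjusted p = 0.000549, limma), with 22.6 and 32.6 CPM and 29.6 and 21.5 CPM in controls. THBS1, the matrix glycoprotein thrombospondin, fell from 59.6 and 45.4 CPM to 12.4 and 11.5 CPM, and MMD, a membrane protein named for macrophage differentiation, from 173 and 242 CPM to 54.7 and 56.9 CPM. These 3 genes were called whichever edited library was left out, with an adjusted p of at most 0.0434 (limma). Of the collagen-modifying enzymes, LOXL4, a lysyl oxidase, fell from 22.9 and 18.5 CPM to 1.31 and 3.38 CPM and PLOD2, a lysyl hydroxylase, from 73.6 and 190 CPM to 18.9 and 22.4 CPM. COL1A2, a collagen I chain and one of the stroma markers, fell from 13.8 and 15.7 CPM to 1.58 and 1.05 CPM, COL12A1 from 12.3 and 32.7 CPM to 1.4 and 4.04 CPM, CTHRC1, a secreted collagen-repeat protein, from 11.9 and 29.3 CPM to 2.6 and 2.97 CPM and LUM from 1282 and 1897 CPM to 120 and 749 CPM. The 2 edited 8-cell pools differed widely in LUM, whose fall had an adjusted p of 0.0245 with all libraries and of 0.0841, 0.294 and 0.206 without edited 4-cell replicate 1 and 2 and edited 8-cell replicate 1 (limma). Without edited 8-cell replicate 2 the adjusted p was 0.000215 and the log2 fold change -3.69, against -1.06 without edited 8-cell replicate 1. Of the cytoskeleton, the tropomyosin TPM4 fell from 86.9 and 115 CPM to 28.8 and 30.6 CPM and the LIM protein PDLIM3 from 12.4 and 40.1 CPM to 2.57 and 4.52 CPM. Without edited 4-cell replicate 2 the adjusted p of these matrix and cytoskeleton genes other than THBS1 and LUM was 0.0755 to 0.196. COL1A2, LUM, ALDH1A1 and SERPINE2 (117 and 115 CPM, then 58.2 and 56.3 CPM) are themselves the follicle cell markers called lower, and the part of follicle cells in these falls was not tested.

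Other falls of small p-value were in genes of various functions. CNRIP1, which binds cannabinoid receptors, fell from 21 and 19.5 CPM to 2.45 and 5.18 CPM, CCT6A, a subunit of the chaperonin TRiC, from 47.1 and 68.7 CPM to 19.2 and 17.7 CPM, LYRM2, a small mitochondrial protein, from 17.4 and 20.2 CPM to 3.8 and 4.88 CPM, and CBX3, a heterochromatin protein, from 42.4 and 94.4 CPM to 14.6 and 17.3 CPM. In CBX3, PLOD2, PDLIM3, COL12A1 and CTHRC1 edited 4-cell replicate 2 was more than 2 times as high as replicate 1, and without it their log2 fold changes went from -1.93, -2.47, -2.40, -2.61 and -2.39 to -1.36, -1.79, -1.59, -1.94 and -1.78. With edited 4-cell replicate 2 left out, the adjusted p of CNRIP1, CCT6A, LYRM2 and CBX3 was 0.0989 to 0.132 (limma). A few genes passed from clear detection to near none. By a rule set after the values were seen, 7 genes had at least 1 CPM in both 4-cell and at most 3 reads in both 8-cell edited libraries. They include RBM43, an RNA-binding protein, with 56 and 133 reads and then 0 and 0, ZBBX with 95 and 94 reads and then 0 and 2, and HDX, a homeobox gene, with 71 and 90 reads and then 0 and 0; against a level of 3 reads per library these were at least 30.7-fold, 30.6-fold and 26.1-fold lower. The reverse held for 3 genes, SPEF1, SERPING1 and LOC112445119, of which SPEF1 went from 1 and 2 reads to 56 and 53, at least 18.7-fold higher against that level.

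Of 102 cell division genes tested, 4 were called higher and 1 lower (median 0.09), against 1.55% higher and 3.95% lower among all tested genes. AURKB, the catalytic kinase of the chromosomal passenger complex, rose from 165 and 139 CPM to 363 and 326 CPM (log2 fold change 1.18, SE 0.21, adjusted p = 0.00738, limma), and CDCA8, the borealin subunit of the same complex, from 589 and 413 CPM to 1002 and 1072 CPM. ANAPC11, the RING subunit of the anaphase-promoting complex, rose from 224 and 171 CPM to 479 and 446 CPM. RPA3, of the single-strand DNA binding complex, fell from 108 and 119 CPM to 46.3 and 52.1 CPM. These 4 genes had an adjusted p of 0.154 to 0.211 without edited 4-cell replicate 2, a fit in which none of the list was called, and without an edited 8-cell library 0 or 1 was.

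The counts of the next lists stand against 1.55% called higher and 3.95% called lower among all tested genes. Of 105 chromatin modifiers 2 were called in each direction (1.9% each). WDR5, a core subunit of histone H3K4 methyltransferases, rose from 98.3 and 81.1 CPM to 203 and 191 CPM and the acetyltransferase KAT2A from 19.7 and 12 CPM to 38.5 and 35.9 CPM. The remodeller CHD9 fell from 19 and 32.9 CPM to 4.24 and 6.11 CPM and the deacetylase SIRT1 from 51.1 and 45.8 CPM to 15 and 22.2 CPM. Of 35 genes of p53 signalling and apoptosis, TIGAR, a regulator of glycolysis, and BCL2L10, an egg member of the BCL2 family, rose from 74 and 71.3 CPM to 133 and 152 CPM and from 694 and 630 CPM to 1108 and 1321 CPM, and PPM1D, a phosphatase that restrains p53, fell from 21 and 19.5 CPM to 9.26 and 5.24 CPM. Of 47 stress genes 4 were called, all lower. The mitochondrial chaperonin HSPD1 fell from 90.6 and 114 CPM to 42.9 and 43.2 CPM, and the chaperones HSPH1 and HSPA4 from 204 and 218 CPM to 111 and 99.3 CPM and from 149 and 118 CPM to 64.1 and 57.8 CPM. In the fit without edited 4-cell replicate 2, the adjusted p of these 10 genes was 0.157 to 0.28 (limma). Of 229 numbered zinc finger genes 3 were called in each direction; ZNF711 fell from 6.19 and 8.6 CPM to 0.0299 and 2.31 CPM, and ZFP30 from 2.75 and 4.12 CPM to 0.179 and 1.05 CPM, with an adjusted p of 0.253 and 0.279 in that fit.

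The edited stage change was set beside that of the control embryos. The 2 comparisons share no library, but the same fit gave both the same estimate of each gene's spread. The filter used the edited libraries only. Calls in the 2 comparisons are therefore not independent. In controls 999 of the same 11672 genes were called (8.56%), 315 higher (2.7%) and 684 lower (5.86%). Of the 181 genes that rose in edited embryos, 28 were also called higher in controls and 8 were called lower, and 96 had the same sign there. Of the 461 that fell, 70 were also called lower in controls, 13 were called higher, and 338 had the same sign. Across all tested genes, which are not independent replicates, the correlation of the 2 stage changes was 0.151 (Pearson).

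The stage change itself was called different between edited and control embryos for 481 genes (4.12%), 234 with a more positive and 247 with a more negative change in edited embryos (limma, interaction contrast). In 463 of the 481 the 2 changes had opposite signs. SUPT4H1, CLK3 and RASL11A belong to the first kind, with differences of 2.70, 1.85 and 2.28 on the log2 scale. So does CLU, the secreted chaperone clusterin, which rose from 34.1 and 42.6 CPM to 89 and 91 CPM in edited embryos and fell from 192 and 249 CPM to 86.2 and 109 CPM in controls (difference 2.38, SE 0.34, adjusted p = 0.0072, limma). DDOST, of the oligosaccharyltransferase, rose from 36.9 and 35.7 CPM to 62 and 73.4 CPM in edited embryos and fell from 325 and 268 CPM to 120 and 124 CPM in controls. In both genes the 8-cell libraries of edited and control embryos were closer together than the 4-cell libraries. NT5DC2, ADISSP and IFI27 had differences of 2.42, 2.08 and 2.42; IFI27 was not called in edited embryos (98.7 and 124 CPM, then 168 and 132 CPM) and fell in controls from 3934 and 2518 CPM to 638 and 966 CPM.

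Among the genes with a more negative change in edited embryos, OOSP2 fell there and rose in controls, from 674 and 1189 CPM to 2821 and 2242 CPM (difference -2.53, SE 0.36, adjusted p = 0.0072, limma). UTP23 rose in controls from 205 and 181 CPM to 383 and 379 CPM, LUZP2 from 8.23 and 10.3 CPM to 21.8 and 27.3 CPM against a fall from 52.7 and 54.5 CPM to 18.1 and 22.1 CPM in edited embryos, and CRYBG1 and CFAP210 had differences of -2.15 and -2.30. NADK2, the mitochondrial NAD kinase, fell from 120 and 76.3 CPM to 28.6 and 32.3 CPM in edited embryos, while its control levels were 17.6 and 25.4 CPM and then 48.7 and 37.1 CPM, whose rise was not called. ALDH1A1, LOXL4, PLOD2, THBS1 and IFI44L fell in edited embryos and were not called in controls, with differences of -2.51, -3.27, -2.15, -1.50 and -1.65. MMD, by contrast, fell in controls too, from 710 and 716 CPM to 234 and 246 CPM, and its difference was -0.29 (SE 0.31, adjusted p = 0.608, limma).

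The count of differing genes rested on single libraries. It was 0 without either edited 4-cell library, 13 and 29 without edited 8-cell replicate 1 and 2, 81 and 1415 without control 4-cell replicate 1 and 2, and 16 and 596 without control 8-cell replicate 1 and 2 (limma). Where it was 0, 2711 and 2334 genes had an unadjusted p under 0.05, against 2739 with all libraries. On recovered reads edgeR called 134 and DESeq2 1105 genes. A difference also depends on the control 4-cell libraries, in which the 29 cumulus and granulosa markers summed to 1970 and 1602 CPM, against 743 and 1093 CPM in the control 8-cell libraries; the part of that shift in the difference was not tested.

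**Figure D5:**
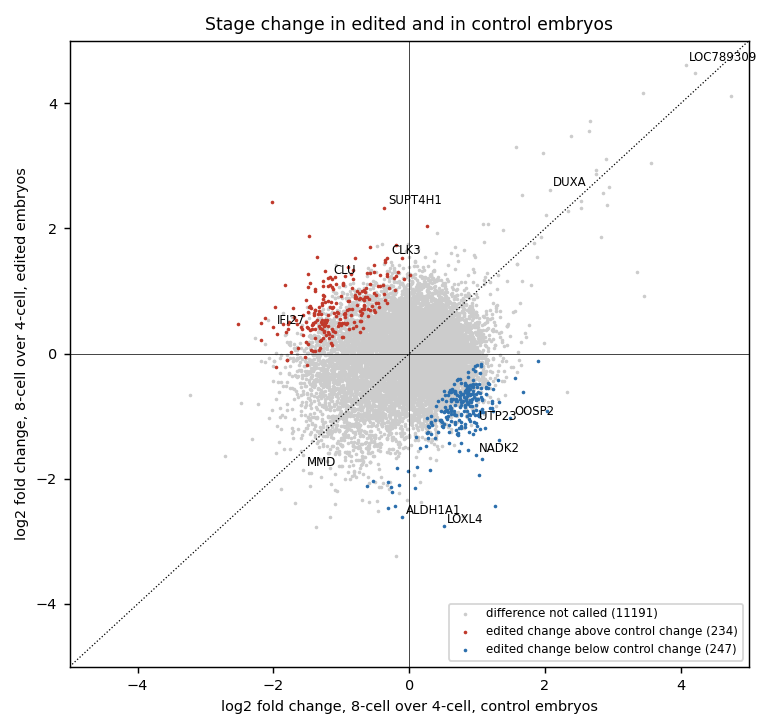
Log2 fold change of 8-cell over 4-cell in control (x) and edited embryos (y) for the 11672 tested genes, on the log2(CPM + 1) scale. Red and blue points are the 234 and 247 genes called for a more positive or more negative change in edited embryos, and the dotted line marks equal change; the coloured points lie mostly in the quadrants of opposite sign, whereas LOC789309 and DUXA lie near the line.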

How the data were processed

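RNA was amplified from pools of 5 embryos by SMART-Seq and tagmented with Nextera XT, per the labels' protocols. The submitters' processing notes name Trim Galore 0.6.7, HISAT2 2.2.1 and featureCounts 2.0.1; the genome build, annotation, strand setting and handling of reads with several matches are not given in the sources used here. The values the authors deposited are CPM: 100% of each library's values above 0 were multiples of 1 step, to a tolerance of 0.05 reads, which gives back 33527531 to 35122409 reads per library. Reads of amplified cDNA are not independent molecules. The table has 12 columns, of which 8 match the samples; 4 columns were not used.

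The test written down first was limma on log2(CPM + 1), with edgeR in its place had the table held raw counts. Because the unit is CPM, limma 3.58.1 (R 4.3.3) with an intensity trend was run on log2(CPM + 1), with 1 mean per group over 8 libraries and 11672 genes averaging 1 CPM or more in the 4 edited libraries; a fold change on this scale understates that of low genes. P-values were adjusted by Benjamini-Hochberg over these genes and called under 0.05. Contrasts were the stage change in edited embryos, in controls, and their difference. The script was tested on simulated data. edgeR 4.0.16 and DESeq2 1.42.0 were run on the recovered reads as alternatives, next to other pseudocounts, filters, scalings, a replicate block and leaving out each library.

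Named genes are, per direction, the 12 called genes with the smallest p and the 6 with the largest change (a symbol, averaging 10 CPM or more, no overlap between stages), the 6 of smallest p in each direction for the difference, up to 4 called members of each list, fixed markers, and the 5 most abundant genes at each stage; others are named to identify a count or as chosen after their values were seen. Members and lists were chosen with earlier results of these data known. Of the symbols, 16571 of 16606 matched RefSeq, used for names and gene order only.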

Additional observations from a re-analysis of the deposited data

Results flagged for a closer look

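The stage change differed between edited and control embryos, by the interaction contrast of limma, for 481 genes. Among the named genes with a more positive change in edited embryos, the difference on the log2 scale was 2.70 for SUPT4H1, 2.42 for IFI27, 2.42 for NT5DC2, 2.38 for CLU, 2.28 for RASL11A, 2.14 for DDOST, 2.08 for ADISSP, 1.94 for SELENBP1, 1.94 for COPRS, 1.86 for ID3, 1.85 for CLK3, 1.78 for TAC3, 1.56 for POLR2C, 1.43 for EIF3L, 1.43 for ANAPC11 and 1.14 for EIF4A3.

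With a more negative change in edited embryos, the difference was -3.27 for LOXL4, -2.69 for LUZP2, -2.60 for NADK2, -2.53 for OOSP2, -2.51 for ALDH1A1, -2.30 for CFAP210, -2.22 for TAF1D, -2.15 for PLOD2, -2.15 for CRYBG1, -2.09 for UTP23, -1.95 for CHD9, -1.65 for IFI44L, -1.50 for THBS1, -1.49 for RPL22L1 and -1.33 for HSPH1. Without either edited 4-cell library no gene was called for a difference (2711 and 2334 genes at an unadjusted p under 0.05, limma), so each of these values stands on 2 pools per group.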

How the results depend on the processing

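Calls are given as all (higher, lower) between the stages in edited embryos, then for the difference from controls. All libraries gave 642 (181, 461), then 481. No filter gave 5 (2, 3), then 0, and no intensity trend 127 (40, 87), then 0 (limma; 2773 and 2987, and 2398 and 2525, genes at an unadjusted p under 0.05). In these 2 fits the 26 falls of ribosomal proteins became 0 and 1. The 14 falls of oxidative phosphorylation became 0 and 0, and the 13 of interferon-stimulated genes 0 and 6. Fitting the 4 edited libraries alone gave 1226 (398, 828), edgeR 425 (90, 335), then 134, and DESeq2 1282 (327, 955), then 1105. Leaving out 1 library gave 7 to 999 (4 to 293, 3 to 706), then 0 to 1415. The replicate block gave 561 (142, 419), then 342. For each gene the difference between replicate 1 and replicate 2 was taken at each stage. Across genes, the 8-cell and 4-cell differences correlated at 0.0249 in edited and -0.316 in control embryos. These values show no pairing of libraries by number. Exchanging the numbers of the 8-cell controls gave 902 (277, 625), then 878, an alternative chosen after seeing the data, as was counting identical rows once, which gave 654 (186, 468), then 482. Named genes that changed sign were uncalled throughout: leaving out 1 library, the log2 fold change of BTG4 was -0.264 to 0.118, of DPPA3 -0.0268 to 0.295 and of PAIP1 -0.0695 to 0.56. Depth (3 reads are 0.0858 to 0.0899 CPM) limits little beyond the lowest genes; 2 pools per group limit the rest.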
